A study of Mus musculus with 4 samples.

Results

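Expression of 9 genes of synaptic and cell adhesion families was followed in single-cell RNA-Seq of the fetal mouse cortex. They were the neurexins Nrxn2 and Nrxn3, the neuroligins Nlgn1, Nlgn2 and Nlgn3, and the cell adhesion molecules Cadm1, Cadm2, Cadm3 and Cadm4 (also called SynCAMs). The members were chosen by name, and all 9 stood among the 16600 genes of the table. Neurexins sit on the axon side of a synapse and bind neuroligins across the cleft, while Cadm proteins bind each other in pairs from either side. In the cortex these families are known for organizing excitatory and inhibitory synapses, and several of them also act in axons and glia before synapses form.

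Libraries came from Setd5+/+ (WT) and Setd5+/- (het) C57BL/6J fetuses at E18.5, shortly before birth, with 2 fetuses per genotype and 1 library each. The het fetuses carried the Setd5 GFP allele, a knockout allele, on 1 of the copies of Setd5, a putative histone methyltransferase. Cortical cells were sorted as CD24+ CD45-, where CD24 marks neurons and CD45 blood cells, and sequenced with the 10x 3′ kit. Libraries are named here by the prefixes of their cells, WT3 and WT6 against Het5 and Het9.

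The libraries held 1445 to 1954 cells each, 6562 in all, with median depths of 5398 to 5997 unique molecular identifiers (UMIs, counted RNA molecules) per cell. Setd5 itself was at 1.18 and 1.07 counts per 10000 UMIs in WT3 and WT6 and at 0.54 and 0.586 in Het5 and Het9, a log2 difference of -0.89 (SE 0.08, adjusted p = 0.00696, limma). The genotypes also differed in sex genes. Xist, the RNA of the silenced X chromosome, was at 20.6 and 21.5 in the WT and at 0.152 and 0.31 in the het libraries, so genotype and sex cannot be told apart below. Cells were placed in classes by UMIs of marker genes, and no member marked a class. The classes are called "-like" because they rest on marker genes alone. Of 18 groups of cells, the ungated ones included, 12 had at least 20 cells in every library and were tested, 10 of them neural, of which 9 are described singly. The other 2 tested classes went against the genotype labels. In the 100 immune-gated cells Xist was at 8.22 to 11.9 in the 4 libraries, and in the 134 melanocyte-gated cells it was at 0.0817 or less. Of these cells, 73 and 127 had barcodes found in all 4 libraries, so results are given for the neural classes, and class contrasts are given with and without these 2. The class gated on the deep-layer list (Fezf2, Bcl11b, Tle4, Foxp2, Sox5) was led by Nrp1, Bhlhe22 and Cntn2, which stand outside that list. This goes against its name, and the class is called Fezf2-list neurons. Of the 2664 cells with at least 2 genes of that list, 1913 had exactly 2, so many lay at its edge. At the Dlx gate 100 cells held the 3 UMIs it asks for and 145 held 2, counted over all cells.

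Nrxn3 set the cell classes apart more than any other member, so its starts are shown first. The gene spans chr12:88722876-90334935 on the plus strand (GRCm38, GENCODE M21), and its 5 protein-coding transcripts start at 4 sites and all end between 90332410 and 90334935. The kit reads the 3′ end, so the long and short forms add up to 1 count and cannot be told apart. RefSeq (GRCm38.p6) gives 3 starts, all inside that span and past its first base. Whether each start is used in these cells was not tested. The 250 bases before each start are printed 5′ to 3′, with the homeodomain core TAAT (either strand) in capitals, since Dlx proteins are homeodomain factors and Nrxn3 followed the Dlx gate.
Nrxn3, chr12:88794254-88794503: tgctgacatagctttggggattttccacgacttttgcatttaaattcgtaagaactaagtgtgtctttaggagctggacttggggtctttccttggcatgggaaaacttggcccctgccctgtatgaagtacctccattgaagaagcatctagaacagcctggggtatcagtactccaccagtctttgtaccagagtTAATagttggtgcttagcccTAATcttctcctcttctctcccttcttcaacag
Nrxn3, chr12:88953140-88953389: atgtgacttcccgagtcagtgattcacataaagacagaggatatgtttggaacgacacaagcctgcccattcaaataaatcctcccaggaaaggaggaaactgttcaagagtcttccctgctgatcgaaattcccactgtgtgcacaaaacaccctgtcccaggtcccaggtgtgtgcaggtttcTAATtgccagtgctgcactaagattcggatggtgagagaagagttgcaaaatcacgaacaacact
Nrxn3, chr12:89812233-89812482: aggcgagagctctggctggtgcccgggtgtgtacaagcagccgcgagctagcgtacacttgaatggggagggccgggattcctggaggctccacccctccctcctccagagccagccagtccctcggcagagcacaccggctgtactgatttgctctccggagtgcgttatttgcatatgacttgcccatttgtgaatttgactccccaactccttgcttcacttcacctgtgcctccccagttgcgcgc
The core was found 2, 1 and 0 times in these windows, and 54.9% of 32851 promoter windows of this length held it at least 1 time. None of the 3 held TAATTA, which 4.84% of all windows held. The windows were 45.6%, 46.8% and 60.0% G and C. The match is a description of the letters and no sign of binding. Windows were present for 6 of the 9 members, and beyond Nrxn3 the core was found only in 1 of the 2 windows of Nlgn1.

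Nrxn3 was found mostly in cells of the Dlx lineage, the GABAergic cells that the Dlx genes mark. In Lhx6 interneuron-like cells, of the type born in the medial ganglionic eminence, it was at 9.15, 9.11, 8.37 and 9.33 counts per 10000 UMIs in WT3, WT6, Het5 and Het9 (8.99 ± 0.426, SD, n = 4). Interneuron-like cells with Htr3a or Nr2f2, marks of caudal origin, held 8.64, 8.87, 9.06 and 9.74 (9.08 ± 0.473). Levels of these classes overlapped. The remaining non-cycling Dlx cells, called Dlx neuroblast-like, held 5.74, 7.05, 6.86 and 6.40 (6.51 ± 0.58), which lay below both interneuron-like classes in every library. Cycling cells of the Dlx gate held 3.50, 3.46, 3.24 and 3.34 (3.38 ± 0.117), lower again in every library. The 108 striatal-gated cells, too few to test and gated without the Dlx genes, held 4.22, 5.32, 2.09 and 3.25 (3.72 ± 1.38).

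Nrxn3 was low in the tested neural classes outside the Dlx gate, at means of 0.147 or less. Radial glia-like cells, the progenitors that line the ventricle, held 0.142, 0.196, 0.146 and 0.105. Intermediate progenitor-like cells held 0.101, 0.0998, 0.0727 and 0.0957. Excitatory neurons held the least. Fezf2-list neurons were at 0.0195, 0.0254, 0.066 and 0.0273, on 22 UMIs in 1038 cells. Other excitatory-like cells had 2 UMIs in 192 cells. Some groups too small to test held more, 0.483 in 47 Olig-gated, 0.739 in 43 Cajal-Retzius-gated and 1.11 in 34 globin-gated cells. A UMI of Nrxn3 was found in 93.6% of Lhx6 interneuron-like cells (median depth 3827 UMIs) against 1.83% of Fezf2-list neurons (5702.5 UMIs) and 0.746% of melanocyte-gated cells (5381.5 UMIs), whose barcodes were mostly shared between libraries.

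The contrast of the 3 non-cycling Dlx classes with the 3 excitatory classes gave a log2 difference of 6.01 (SE 0.16, adjusted p = 1.81e-32, limma) on the scale log2(counts per 10000 UMIs + 0.1). That scale understates the change of a gene this low in one arm. Excitatory neurons were in turn below radial glia-like cells by a log2 difference of -0.95 (SE 0.23, adjusted p = 5.68e-04). Lhx6 interneuron-like cells were 0.46 above Dlx neuroblast-like cells (SE 0.28, adjusted p = 0.512), which did not pass.

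**Figure D1:**
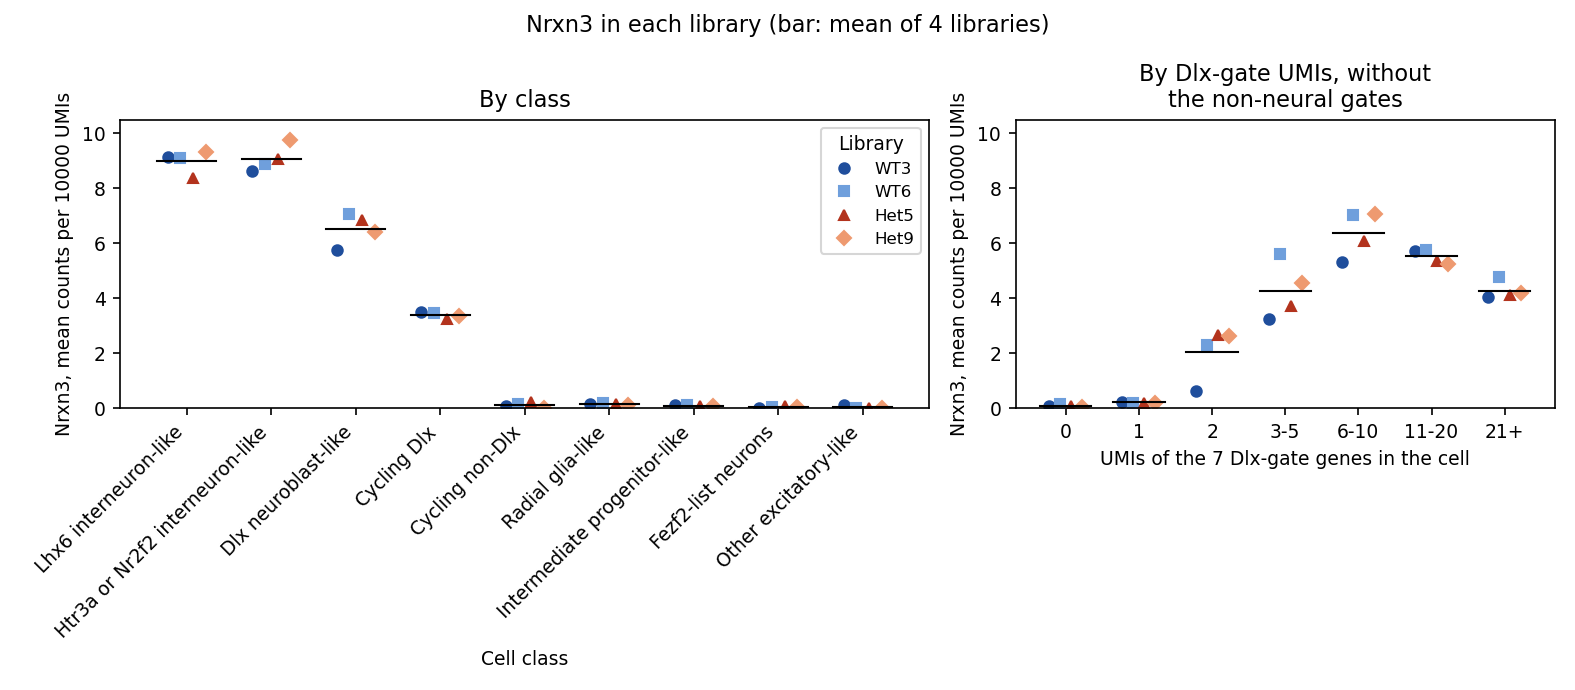
Nrxn3 in counts per 10000 UMIs (vertical axes) by cell class (left) and by the UMIs of the 7 Dlx-gate genes in the cell (right, without the non-neural gates), with 1 point per library and a bar at the mean of 4. The Dlx classes sit between 3.24 and 9.74, the other classes shown at or below 0.224, and the level rises between 1 and 6 Dlx-gate UMIs.

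The rise was also followed without the classes. The 6289 cells outside the globin, immune, melanocyte and vascular gates were sorted by their summed UMIs of the 7 Dlx-gate genes (Dlx1, Dlx2, Dlx5, Dlx6, Dlx6os1, Gad1, Gad2). The mean Nrxn3 level over the libraries was 0.0903 in 3371 cells with 0, 0.208 in 750 cells with 1 and 2.05 in 142 cells with 2, so cells just outside the gate also held it. At 3 to 5 UMIs, just inside the gate, it was 4.28 ± 1.03 (SD, n = 4). The mean was highest at 6 to 10 UMIs, 6.37 ± 0.841, and was 5.52 ± 0.258 at 11 to 20 and 4.28 ± 0.34 at 21 or more. Levels at 6 to 10 and at 11 to 20 overlapped, and in WT3 they were 5.31 and 5.72. Radial glia-like cells without a Dlx-gate UMI still held 0.14, on 16 UMIs in 176 cells. The genes most like Nrxn3 across the 12 classes, by Pearson's r of log2 levels among 8418 genes, were Gad2 (r = 0.992), which makes GABA, Slc32a1 (r = 0.99), which loads it into vesicles, and Dlx5 (r = 0.989). Gad2 and Dlx5 are gate genes, while Slc32a1 is not.

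Nrxn2 was found in all classes of neurons. The gene lies at chr19:6418731-6544169. Its level was 1.90 ± 0.256 in Htr3a or Nr2f2 interneuron-like cells and 1.68 ± 0.28 in Lhx6 interneuron-like cells. Dlx neuroblast-like cells were at 1.60 ± 0.213. The 3 excitatory classes were at 1.27 to 1.55. The tested progenitor classes held less, 0.778 in cycling Dlx cells, 0.549 in intermediate progenitor-like cells, 0.485 in radial glia-like cells and 0.392 in cycling cells outside the Dlx gate. The 47 Olig-gated cells, too few to test, held 1.31 ± 0.445. In radial glia-like cells the 4 libraries stood at 0.492, 0.47, 0.481 and 0.498, below every library of the excitatory classes, whose lowest was 1.06. The log2 difference of excitatory neurons over radial glia-like cells was 1.35 (SE 0.18, adjusted p = 2.48e-08). The Dlx classes were 0.28 above the excitatory ones (SE 0.13, adjusted p = 0.123), and without the immune-gated and melanocyte-gated cells in the fit the same 0.28 had an adjusted p of 0.0172. Klc1, a kinesin light chain, was the gene most like it (r = 0.987, 12 classes).

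**Figure D2:**
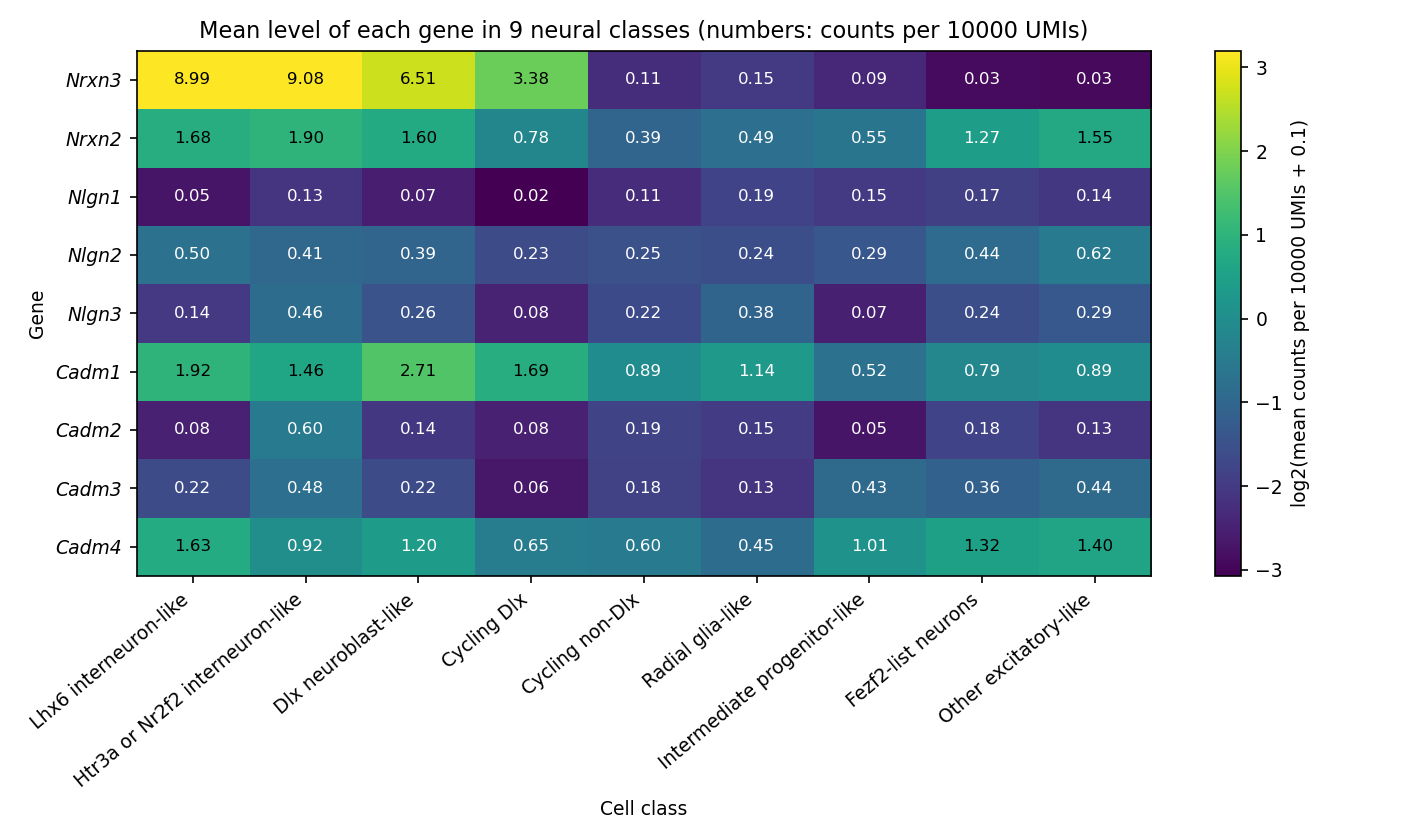
Mean level of each gene (rows) in 9 neural classes (columns), with the color on the scale log2(counts per 10000 UMIs + 0.1) and the counts per 10000 UMIs printed in the cells. Nrxn3 runs from 0.0327 to 9.08, Cadm1 is highest in Dlx neuroblast-like cells at 2.71, and Nrxn2, Nlgn2 and Cadm4 are lowest in cycling or radial glia-like cells.

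The neuroligins were low. Nlgn2, the neuroligin of inhibitory synapses, was the most evenly spread, from 0.227 in cycling Dlx cells to 0.621 in other excitatory-like cells. In Fezf2-list neurons it was at 0.441, 0.424, 0.423 and 0.471, and in Dlx neuroblast-like cells at 0.43, 0.397, 0.412 and 0.331, which overlap. Its log2 difference between the Dlx and excitatory classes was -0.13 (SE 0.14, adjusted p = 0.598). Excitatory neurons were 0.82 above radial glia-like cells (SE 0.20, adjusted p = 8.04e-04), where it was at 0.161, 0.258, 0.377 and 0.154. So Nlgn2 was higher in excitatory neurons than in radial glia-like cells, and a difference between lineages was not detectable at this depth. The gene lies at chr11:69823122-69837784.

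Nlgn3, which serves both kinds of synapse and is also made by glia, had another order. Among neural classes it was highest in Htr3a or Nr2f2 interneuron-like cells, 0.59, 0.649, 0.248 and 0.335, and next in radial glia-like cells, 0.491, 0.398, 0.357 and 0.274. These levels overlap. The lowest was in intermediate progenitor-like cells, 0.0741 ± 0.0242, on 68 UMIs in 1299 cells. In 47 cells gated on Olig1 and Olig2, too few to test, it was 0.54 ± 0.087, a mean above those of all tested classes. Excitatory neurons were below radial glia-like cells by a log2 difference of -0.38 (SE 0.21, adjusted p = 0.141), which did not pass with all libraries and did without Het9 (-0.56, adjusted p = 0.0473). The gene lies at chrX:101299168-101325963, on the chromosome that the sex difference of the libraries bears on.

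Nlgn1, the neuroligin of excitatory synapses, was at the limit of detection. No class exceeded 0.188 ± 0.0221, the level in radial glia-like cells, and Fezf2-list neurons held 0.168, 0.198, 0.173 and 0.152 on 115 UMIs in 1038 cells. In cycling Dlx cells it was 0.0191, on 13 UMIs in 994 cells. Its mean over the 12 classes fell under the filter of 0.1, so the class contrasts were not tested for it. With the immune-gated and melanocyte-gated cells left out it passed the filter, and the Dlx classes were then below the excitatory classes by a log2 difference of -0.55 (SE 0.18, adjusted p = 0.0128). The Dlx side rested on few UMIs, and its classes differed. Lhx6 interneuron-like cells held 0.0535 on 5 UMIs, Htr3a or Nr2f2 interneuron-like cells 0.129 on 6 and Dlx neuroblast-like cells 0.0712 on 19. Other excitatory-like cells held 0.139 on 12. The gene lies at chr3:25426215-26332460.

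Cadm1, which binds other Cadm proteins and is best known for inducing synapses, had its highest mean in Dlx neuroblast-like cells among the tested classes. It reached into all classes. Dlx neuroblast-like cells were at 3.70, 3.17, 2.36 and 1.61 in WT3, WT6, Het5 and Het9 (2.71 ± 0.918). Lhx6 interneuron-like cells were at 0.982, 2.97, 1.67 and 2.04, and Htr3a or Nr2f2 interneuron-like cells at 1.45, 1.38, 1.58 and 1.45. The Lhx6 values overlapped those of Dlx neuroblast-like cells, and in Het9 the Lhx6 value was higher. The contrast of the Lhx6 with the Dlx neuroblast-like cells was -0.52 (SE 0.24, adjusted p = 0.329, limma). It did not pass, though it did with stricter gates. Cycling Dlx cells were at 2.00, 1.77, 1.83 and 1.17. Radial glia-like cells, at 1.06, 1.16, 1.19 and 1.16, lay above intermediate progenitor-like cells, at 0.51, 0.609, 0.439 and 0.503, in every library. Fezf2-list neurons were at 0.754, 1.10, 0.725 and 0.597, with WT6 above the other 3 libraries. In melanocyte-gated cells, where the labels do not hold, it was 1.64. The 43 Cajal-Retzius-gated cells, too few to test, held 2.93, 2.42, 0.855 and 2.23, a mean of 2.11 above that of the interneuron-like classes, and 67.4% of them had a UMI. A UMI of Cadm1 was found in 45.8% of Dlx neuroblast-like cells (median depth 4178 UMIs), 53.8% of cycling Dlx cells (6646.5 UMIs), 46.9% of radial glia-like cells (6492.5 UMIs), 50% of melanocyte-gated cells (5381.5 UMIs) and 8.0% of immune-gated cells (1937.5 UMIs), so this share did not set the Dlx neuroblast-like cells apart.

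The Dlx classes were above the excitatory classes by a log2 difference of 1.38 in Cadm1 (SE 0.14, adjusted p = 1.90e-11), and excitatory neurons were below radial glia-like cells by -0.70 (SE 0.20, adjusted p = 0.00336). The latter no longer passed without Het5 (-0.64, adjusted p = 0.0516). Cadm1 was uneven among Dlx neuroblast-like cells. With each cell thinned to 3000 UMIs, the variance over the mean of its counts was 1.99, 2.33, 2.47 and 2.18 in the 4 libraries, against 1.06 to 1.41 in radial glia-like cells, where 1 is what counting alone gives. It was 1.32 to 1.75 in Fezf2-list neurons and 1.25, 1.28, 3.05 and 3.68 in 160 Lhx6 interneuron-like cells, so the spread was not particular to one class. Nrxn3 had 1.33 to 1.79 in the same Dlx neuroblast-like cells. In the 108 striatal-gated cells Cadm1 was 5.20, 3.74, 2.51 and 3.24, with 8 and 18 cells in the het libraries, which is too few to test. Over the 12 classes Efna5 was most like Cadm1 (r = 0.879), and over the 10 neural classes Lmo3 (r = 0.939).

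**Figure D3:**
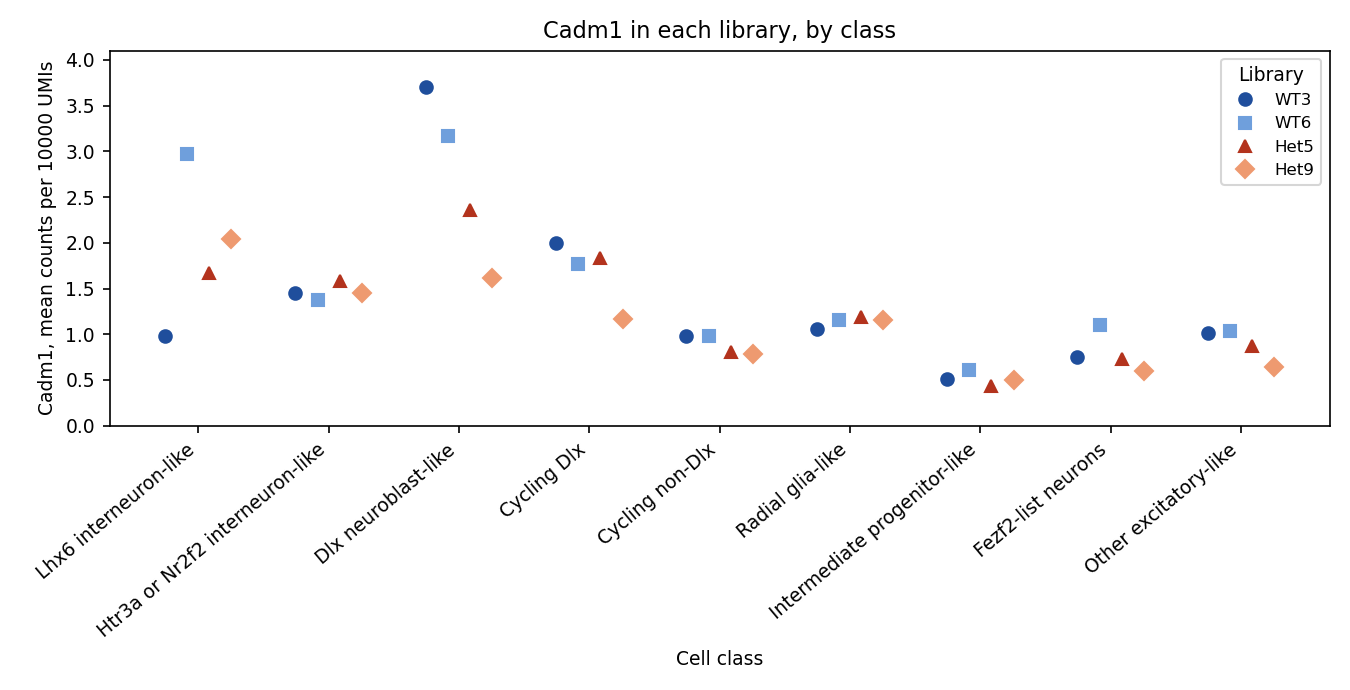
Cadm1 in counts per 10000 UMIs (vertical axis) in each of the 4 libraries (points) by cell class (horizontal axis). In Dlx neuroblast-like cells the WT libraries are at 3.70 and 3.17 and the het libraries at 2.36 and 1.61, while in radial glia-like cells the 4 libraries lie between 1.06 and 1.19.

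Cadm4, which glia use to hold axons, was found in neurons of both lineages and in intermediate progenitors. It was highest in Lhx6 interneuron-like cells, 2.07, 1.35, 1.30 and 1.81. Fezf2-list neurons at 1.32, other excitatory-like cells at 1.40 and Dlx neuroblast-like cells at 1.20 overlapped with them. Intermediate progenitor-like cells at 1.01 overlapped with Htr3a or Nr2f2 interneuron-like cells at 0.917. Radial glia-like cells held 0.421, 0.495, 0.56 and 0.331, below every library of these excitatory classes, whose lowest was 1.03. The log2 difference of excitatory neurons over radial glia-like cells was 1.41 (SE 0.18, adjusted p = 6.16e-09). Between the Dlx and the excitatory classes it was -0.15 (SE 0.13, adjusted p = 0.451). The gene is short, chr7:24482023-24504539. Across the 10 neural classes its log2 levels went with those of Nlgn2 (r = 0.88) and Nrxn2 (r = 0.784), points that share libraries and depth.

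Cadm3, an adhesion molecule of neurons and their axons, was low in radial glia-like and cycling cells. It was 0.13 ± 0.0865 in radial glia-like cells and 0.0566 ± 0.016 in cycling Dlx cells. Intermediate progenitor-like cells already held 0.417, 0.405, 0.443 and 0.462, above every library of the radial glia-like cells. Fezf2-list neurons were at 0.362 and other excitatory-like cells at 0.437, and the excitatory classes were 1.18 above radial glia-like cells (log2, SE 0.24, adjusted p = 7.46e-05). The Dlx classes were 0.36 below excitatory neurons (SE 0.17, adjusted p = 0.126), an average over classes that differed. Htr3a or Nr2f2 interneuron-like cells held 0.479 ± 0.127, the highest mean of the tested classes described, while Lhx6 interneuron-like cells held 0.224 and Dlx neuroblast-like cells 0.222. In 43 cells of the Cajal-Retzius gate, the early neurons of the cortical surface, it was 0.548, 0.894, 1.94 and 1.71, with a mean of 1.27 above that of any tested class but with 6 to 17 cells per library. Cadm3 lies at chr1:173333258-173367695.

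Cadm2 was low and rested on few UMIs. In Htr3a or Nr2f2 interneuron-like cells it was at 0.48, 0.374, 0.757 and 0.795, on 28 UMIs in 151 cells, above the range in Lhx6 interneuron-like cells, 0.0577 to 0.1 on 6 UMIs. Fezf2-list neurons held 0.164, 0.137, 0.257 and 0.179. Cycling cells outside the Dlx gate held 0.19 on 113 UMIs, and the 47 Olig-gated cells held 0.314 on 12 UMIs. Its contrast of the Dlx with the excitatory classes was 0.09 (SE 0.15, adjusted p = 0.748), an average over Dlx classes that differed among themselves. Excitatory neurons were 0.23 above radial glia-like cells (SE 0.21, adjusted p = 0.427). Cadm1 and Cadm2 are the long genes of the family, at chr9:47530173-47857637 and chr16:66655421-67620908.

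Counted together, 2 of the 8 members tested passed between the Dlx and the excitatory classes, Nrxn3 and Cadm1, both higher in the Dlx classes. Of all genes 23.8% passed, 9.87% higher and 13.9% lower. With the immune-gated and melanocyte-gated cells left out 4 of 9 passed (Nrxn2 and Nlgn1 in addition), where 32.6% of all genes did. From radial glia-like to excitatory cells 6 of 8 passed, and 42% of all genes did (20.7% higher and 21.2% lower). Without the immune-gated and melanocyte-gated cells the same 6 of 9 passed, and 50.7% of all genes. Nrxn2, Nlgn2, Cadm3 and Cadm4 were higher in excitatory neurons, and Nrxn3 and Cadm1 lower. From radial glia-like to excitatory cells 7 members passed with stricter gates, where 4413 of 8223 genes did. With classes of 5 cells per library added 5 passed, where 2664 of 8470 genes did. Between Lhx6 interneuron-like and Dlx neuroblast-like cells 0 of 8 passed in limma, where 3.41% of all genes did. An unadjusted p under 0.05 was found for 2 members and for 1125 of 8418 genes. Without the immune-gated and melanocyte-gated cells 0 of 9 passed there, where 7.3% of all genes did. With stricter gates 3 members passed in this contrast, where 14.5% of all genes did.

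**Figure D4:**
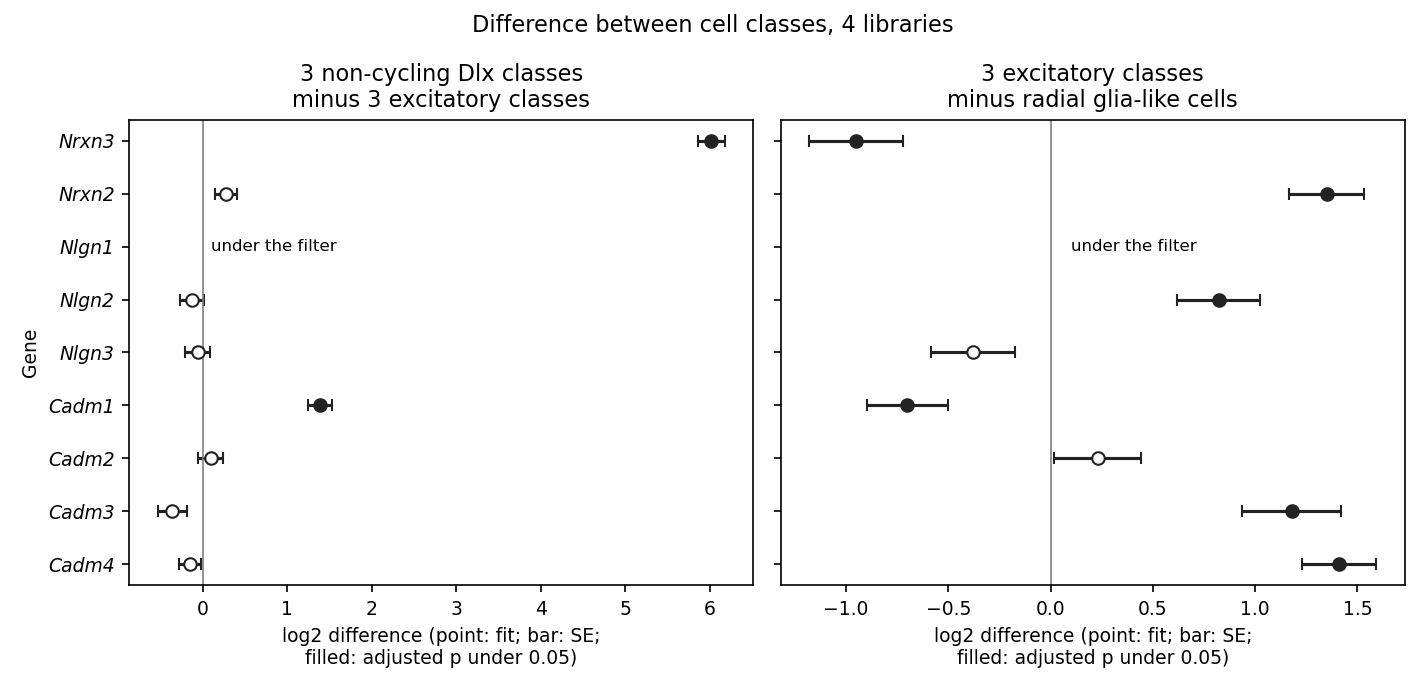
Log2 difference (horizontal axes, point and SE bar) of each gene (vertical axis) between the 3 non-cycling Dlx classes and the 3 excitatory classes (left) and between the excitatory classes and radial glia-like cells (right), 4 libraries, filled where the adjusted p is under 0.05. Nrxn3 stands at 6.01 on the left and at -0.95 on the right, and Nlgn1 was under the filter.

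The genes most like the other members were found in the same way, over the 12 classes. For Nlgn2 they were Zfp775 (r = 0.992), Zfp46 (r = 0.984) and Ncs1 (r = 0.984), and for Nlgn3 Fjx1 (r = 0.958), Cers4 (r = 0.943) and Schip1.1 (r = 0.928). For Cadm4 they were Fam109a (r = 0.994), Chmp7 and 2700081O15Rik, for Cadm3 Prnp (r = 0.974), Plxna3 and Srrm4, and for Cadm2 Ap1s2 (r = 0.906), Crcp and Klhl23. Cadm1 was followed after Efna5 by Tmem106c (r = 0.864) and Etv1 (r = 0.861), and Nrxn2 after Klc1 by 4931428F04Rik and Ppp3r1. None of these marks a gate. Over the 10 neural classes Nlgn1 was most like Calr (r = 0.962). Between members the highest r over the 10 neural classes was that of Cadm4 with Nlgn2, given above, and next that of Cadm1 with Nrxn3 (r = 0.859). Classes share libraries and are not independent, so these values are descriptions.

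The partners of these families were counted from a list of 76 genes in the table, 41 ligands and receptors, 30 scaffolds and 5 splicing regulators, of which 38 were tested between classes. In the Dlx classes 4 passed as higher than in the excitatory classes and 16 as lower (9.87% and 13.9% of all genes did), and the other 18 did not pass. The list had a median log2 difference of -0.15 against -0.03 over all genes. Nxph1, a secreted ligand of neurexins, was the furthest up at 2.26 (SE 0.16), followed by the scaffolds Dlgap1 at 0.86 (SE 0.17) and Magi1 at 0.58 (SE 0.19). The latrophilin Adgrl2, at -1.97 (SE 0.16), was the furthest down, followed by Nxph4 at -1.63 (SE 0.14) and the receptor phosphatase Ptprd at -1.36 (SE 0.16). Among ligands and receptors 1 passed as higher and 11 as lower, and among scaffolds 2 as higher and 3 as lower. From radial glia-like to excitatory cells 22 of the 38 passed as higher and 6 as lower (20.7% and 21.2% of all genes did), with a median of 0.68 against 0.00 over all genes. The splicing regulator Khdrbs2 was at 2.01 (SE 0.26), the scaffold Shank1 at 1.98 (SE 0.27) and the latrophilin Adgrl1 at 1.83 (SE 0.19), with Pvrl3 (nectin-3) at -1.84 (SE 0.23), dystroglycan, Dag1, at -1.40 (SE 0.23) and Magi1 at -1.31 (SE 0.27). Between Lhx6 interneuron-like and Dlx neuroblast-like cells Nxph1 was again the furthest up, 2.47 (SE 0.28), followed by Dlgap1 at 1.5 (SE 0.30) and Ptprd at 1.12 (SE 0.27). Flrt2, a ligand of latrophilins, was at -2.91 (SE 0.34), the only one of the 38 that passed as lower, while 3 passed as higher (3.41% of all genes passed in either direction).

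The genotypes were then compared, to ask whether loss of a Setd5 copy went with other levels of these genes. Over all cells Cadm1 was at 1.35, 1.52, 1.04 and 0.837 in WT3, WT6, Het5 and Het9, both het libraries below both WT libraries. The log2 difference was -0.57 (SE 0.10, adjusted p = 0.323), and without Het5 it passed (-0.71, adjusted p = 0.0218). Over 12 alternatives the adjusted p ran from 0.0218 to 0.669. Nrxn3 was at 1.74, 2.28, 1.52 and 1.52, a log2 difference of -0.37 (SE 0.11, adjusted p = 0.942), which ran from -0.55 without WT3 (adjusted p = 0.0809) to -0.18 without WT6 (adjusted p = 0.999). None of the 9 members passed in limma, where 0.086% of all genes did, and 2 had an unadjusted p under 0.05, as had 353 of 8137 genes. The others were between -0.14 (Nlgn3) and 0.18 (Cadm2). In tissue counted as a whole, fewer cells of a type and less RNA per cell cannot be told apart, and here the classes were not equally common. Non-cycling Dlx cells made up 14.1%, 18.8%, 11.3% and 13.1% of the cells in WT3, WT6, Het5 and Het9. With the 10 neural classes weighted alike, Nrxn3 was 2.75, 2.90, 2.81 and 2.91, a log2 difference of 0.02, so its sign turned. Cadm1 weighted alike was 1.29, 1.48, 1.18 and 1.02, and the het libraries remained lower, by -0.31 (adjusted p = 0.643).

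Within the 9 classes 69 tests of a member in a class were made, and 0 passed in limma, with 5 at an unadjusted p under 0.05. Over all genes those at an unadjusted p under 0.05 ran from 321 of 7508 in cycling Dlx cells to 446 of 7782 in other excitatory-like cells. Of all genes 0.107% passed in cycling Dlx cells, 0.0977% in the other cycling cells, 0.0398% in Lhx6 and 0.0525% in Htr3a or Nr2f2 interneuron-like cells. The share was 0.0612% in radial glia-like and 0.13% in intermediate progenitor-like cells, 0.156% in Fezf2-list neurons and 0.0643% in other excitatory-like cells. Cadm1 in Dlx neuroblast-like cells was nearest. Its WT libraries, 3.70 and 3.17, did not overlap the het libraries, 2.36 and 1.61, and the log2 difference was -0.78 (SE 0.17, adjusted p = 0.131), in a class where 0.117% of all genes passed. Over 13 alternatives the adjusted p ran from 0.00171 to 0.729 and passed in 4, and every difference was negative. Without WT6 it was -0.89 (adjusted p = 0.018), without Het5 -1.04 (adjusted p = 0.00171), and without Het9, the lower het library, it was -0.52 (adjusted p = 0.436). The class is mixed, and the libraries did not hold its kinds of cells in equal shares. The part of this in the difference was not tested. Cadm1 was among the genes the study chose in these libraries, so its direction here is not independent evidence.

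RNA of other cell types was summed in the same Dlx neuroblast-like cells. The 4 globin genes were at 7.41, 7.47, 4.90 and 13.4 in WT3, WT6, Het5 and Het9. The 8 radial glia markers were at 4.1, 4.96, 6.60 and 6.64, higher in both het libraries, and the 6 striatal markers (2 of them at 0) at 4.01, 2.69, 3.25 and 2.31. The 8 cycling markers were at 1.16, 1.01, 1.32 and 1.22, also higher in both het libraries. The 2 Neurod markers were at 1.62, 1.03, 1.60 and 1.89. The part of these in the result was not tested. Immune markers (3 of 8 at 0) were at 0.163 or less and melanocyte markers (3 of 5 at 0) at 0.0213 or less.

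Cadm1 was lower in both het libraries in 5 of these 9 classes and higher in both in 0. Of all genes 16.3% to 18.3% were lower in both het libraries of a neural class, and 15.8% to 17.6% higher. The classes share libraries and are not independent, so the count of classes is a description. How many genes were lower in as many classes was not counted. The 5 were Dlx neuroblast-like cells, Fezf2-list neurons, other excitatory-like cells, intermediate progenitor-like cells and cycling cells outside the Dlx gate. In Fezf2-list neurons the difference was -0.41 (SE 0.14, adjusted p = 0.655). It passed without WT3 (-0.66, adjusted p = 0.0237) and with stricter gates (-0.95, adjusted p = 0.0217), and was -0.17 without WT6 (adjusted p = 0.903). Lhx6 interneuron-like cells (0.09, SE 0.32), Htr3a or Nr2f2 interneuron-like cells (0.09, SE 0.30) and radial glia-like cells (0.08, SE 0.21) had small positive values. Their signs were not stable. In Lhx6 interneuron-like cells the value ran from -0.66 without WT3 to 0.85 without WT6, in Htr3a or Nr2f2 interneuron-like cells it was -0.094 with cells thinned, and in radial glia-like cells it was -0.059 with stricter gates. The Dlx neuroblast-like difference was not shown to exceed that of excitatory neurons. The difference between them was -0.28 (SE 0.24, adjusted p = 0.965), and 0 of 9 members passed that test in limma (0 at an unadjusted p under 0.05, and 0.0128% of all genes passed).

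**Figure D5:**
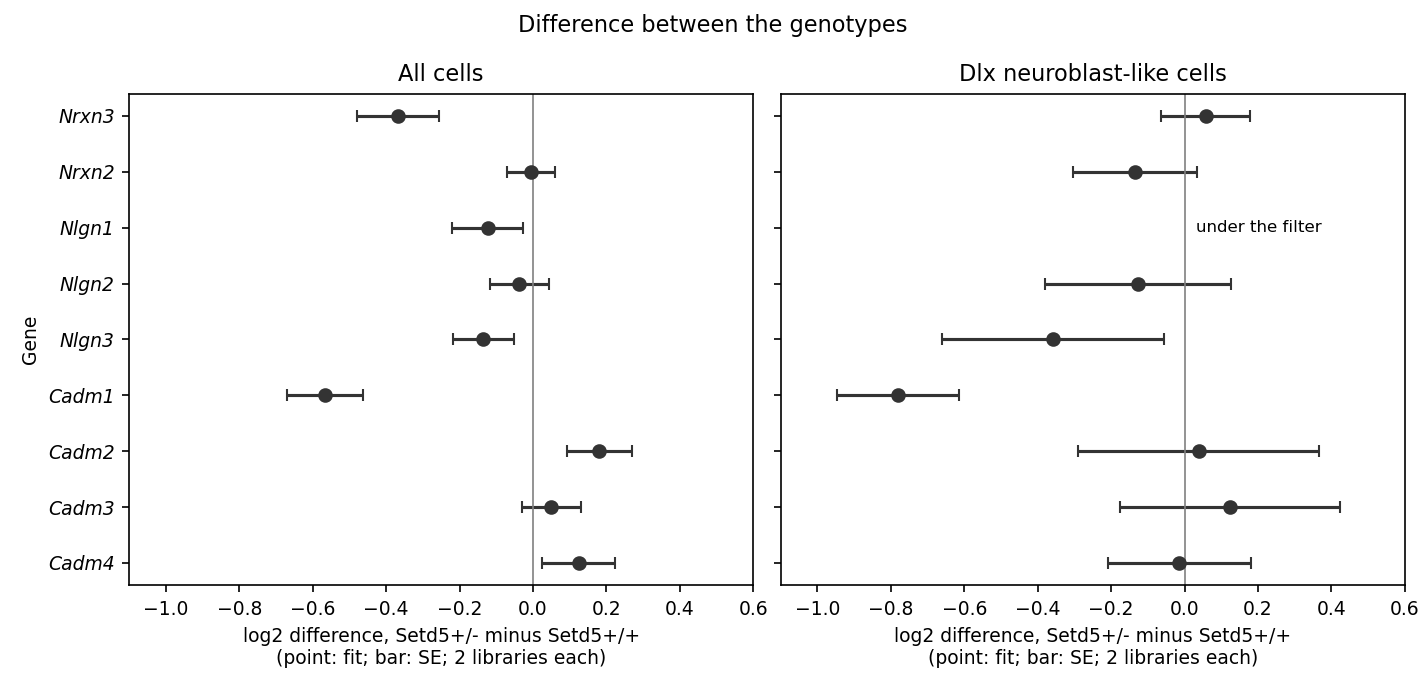
Log2 difference of het minus WT (horizontal axes, point and SE bar, 2 libraries each) for each gene (vertical axis) over all cells (left) and in Dlx neuroblast-like cells (right). Cadm1 is furthest left in both, at -0.57 and -0.78, and Nrxn3 moves from -0.37 over all cells to 0.06 within the class.

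The other members were followed in the same way. Nrxn3 in Dlx neuroblast-like cells differed by 0.06 (SE 0.12) and in Lhx6 interneuron-like cells by -0.05 (SE 0.17). Both classes hold it at a high level. Of all genes tested in a neural class, 16.3% to 18.3% were lower in both het libraries and 15.8% to 17.6% higher. Classes with both het libraries lower and higher numbered 2 and 2 for Nrxn3, and 1 and 2 for Cadm3 and for Nlgn1. They numbered 0 and 1 for Cadm4, Nrxn2 and Nlgn2. Some of these classes held the gene under the filter. Nlgn3 was lower in both het libraries in 3 of 9 neural classes and higher in both in 0. The furthest was Htr3a or Nr2f2 interneuron-like cells, 0.59 and 0.649 against 0.248 and 0.335, a log2 difference of -0.89 (SE 0.48, adjusted p = 0.981) on 29 UMIs. Cadm2 was higher in both het libraries in 3 neural classes and lower in both in 0. These include Lhx6 interneuron-like cells, where Cadm2 rested on 6 UMIs and fell under the filter. In Htr3a or Nr2f2 interneuron-like cells it was 0.48 and 0.374 against 0.757 and 0.795 (0.74, SE 0.43, adjusted p = 0.981). Cadm4 in intermediate progenitor-like cells was 0.747 and 0.955 against 1.11 and 1.22, a log2 difference of 0.42 (SE 0.12, adjusted p = 0.619). Without WT6 that difference passed (0.58, adjusted p = 0.00232). Nlgn1 in Htr3a or Nr2f2 interneuron-like cells, at 0.394 and 0.121 against 0 and 0, had an unadjusted p of 0.0285 on 6 UMIs. Of the partner genes 39 were tested over all cells and 38 in Dlx neuroblast-like cells, and 0 passed between genotypes in limma. In other excitatory-like cells 1 of 39 passed in limma, the latrophilin Adgrl3 (-1.87, SE 0.36, adjusted p = 0.0379). Of all genes 0.0643% passed there, in a class of 31 to 63 cells per library. In the other neural classes described 28 to 44 partner genes were tested, and 0 passed.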

How the data were processed

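Single-cell RNA-Seq libraries of 2 WT and 2 het fetuses were analysed. The authors deposited a natural log scale: each cell's counts were brought to 10000 UMIs, 1 was added and ln was taken. Tools named in the submitters' notes were Seurat 2.3.0 and Cell Ranger 2.1, with the build mm10. How reads were aligned, to which annotation and with what strand rule is not given in the sources used here. Every value gave a whole UMI count within 0.001 once divided by the lowest of its cell, and the 4 libraries held 8205330 to 11742956 UMIs. Prefixes of cell names give the genotype but no replicate number. No per-sample column was left unused.

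The members, gene lists, gates and tests were chosen with earlier results of these data known. The genes named are the 9 members, Setd5, sex genes and the 3 genes most like each member. Marker genes of the gates and genes of the partner list with the furthest values are named too. Cells took the first gate they met: globin at 5% or more of the UMIs, immune, melanocyte, vascular, cycling with and without the Dlx gate (3 UMIs of 7 genes), Cajal-Retzius, striatal, Lhx6, Htr3a or Nr2f2, other Dlx cells, Olig, radial glia (4 of 8 genes), intermediate progenitor, and Neurod2 or Neurod6 cells split by the Fezf2 list and 1 further list. One excitatory class on its own, a split of the Dlx neuroblast-like cells and 1 gene of the partner list are not reported here. The globin (34 cells), vascular (5), Cajal-Retzius (43), striatal (108), Olig (47) and ungated (93) groups were too small to test. Scrublet (scanpy 1.11.5) called 64 doublets (0.975% of cells), 82 cells passed both the Dlx and the Neurod gate, and both sets were kept in the main analysis.

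Mean counts per 10000 UMIs per library and class were compared as log2(mean + 0.1) with limma 3.58.1 (variance trend, genes with a mean of at least 0.1, classes with at least 20 cells in every library, library as a block between classes), with Benjamini-Hochberg adjustment over all genes and a threshold of 0.05. P-values between genotypes rest on 2 fetuses per genotype and measure only the spread between these libraries, with a variance that limma partly borrows from other genes. P-values between classes measure the spread left once class and library are taken out. That spread is pooled over all classes in the fit and is not the spread between fetuses. The script was tested on simulated data. Alternatives were pseudocounts of 0.01 and 1, no filter, summed UMIs, cells thinned to 3000 UMIs (526 cells were shallower), doublets, shared barcodes or doubly gated cells removed, stricter gates, and each library left out.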

Additional observations from a re-analysis of the deposited data

How the results depend on the processing

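No paired analysis was possible because the cell names carry no replicate number of the sample labels. Leaving out 1 library at a time, where the lone library of a genotype is assumed to vary like the others, gave 0 to 1 members called between genotypes over all cells, 0 to 2 within classes, 7 to 41 genes called over all cells (7 with all libraries), 16 to 67 in Dlx neuroblast-like cells (9 with all) and 143 to 209 between Lhx6 interneuron-like and Dlx neuroblast-like cells (287 with all). Without WT3, Cadm1 passed between genotypes in Fezf2-list neurons (-0.66, adjusted p = 0.0237). Within classes summed UMIs called 1 member and stricter gates 2, all Cadm1. Genotype calls in Dlx neuroblast-like cells were 5 with no filter, 17 with summed UMIs and 23 with stricter gates. Classes weighted alike, added after seeing the data, gave 14 genotype calls. Between the Dlx and excitatory classes 4 members passed with doublets removed (30.7% of all genes did), with shared barcodes removed (32.4%) and without the immune-gated and melanocyte-gated classes (32.6%), against 2 members and 23.8% as reported, and classes of 5 cells per library (added later) gave 1233 genes against 2001. Between Lhx6 interneuron-like and Dlx neuroblast-like cells 1 member passed at a pseudocount of 1 (Nrxn3), 3 with stricter gates (Cadm1, Cadm2 and Cadm4) and 1 without doubly gated cells (Nlgn3). Genes called there were 373 of 8418 at a pseudocount of 1, 370 of 8420 without doubly gated cells, 531 with doublets removed, 596 with shared barcodes removed, 1190 with stricter gates, 110 with classes of 5 cells and 589 without the immune-gated and melanocyte-gated classes. The causes were not tested.

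Signs turned only for differences that had not passed. Over all cells, classes weighted alike gave -0.014 for Cadm3 and 0.016 for Nrxn3. Nrxn2 was 0.039 with cells thinned. With 1 library left out Nrxn2 ran from -0.044 to 0.035 (above 0 without WT3 and without Het5) and Nlgn2 from -0.097 to 0.022 (above 0 without Het5). Cadm1 between genotypes was -0.055 with summed UMIs and -0.38 with stricter gates in Lhx6 interneuron-like cells, where leaving out 1 library gave -0.66 (without WT3) to 0.85 (without WT6). It was -0.00055 with summed UMIs and -0.094 with cells thinned in Htr3a or Nr2f2 interneuron-like cells, and -0.059 with stricter gates in radial glia-like cells. Between the Dlx and excitatory classes Cadm2 was -0.084 with summed UMIs and -0.27 with cells thinned, Nlgn2 ran from -0.29 to 0.035 (above 0 without WT6) and Nlgn3 from -0.21 to 0.12 (above 0 without Het9) with 1 library left out, and Nlgn3 was 0.0078 at a pseudocount of 1 and 0.058 with summed UMIs. From radial glia-like to excitatory cells Cadm2 was -0.12 with stricter gates. The striatal contrast could be run only with classes of 5 cells, where 0 of 9 members passed. Depth limits Nlgn1, Cadm2 and Nlgn3 most.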
